A study of Sus scrofa with 3 samples.

Results

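Gene expression of mesenchymal stem cells derived from pig bone marrow (BM-MSC) was compared with that of a population labelled as bone marrow attached cells (BMAC), gene by gene and by families and functions. Every gene that reached 10 counts per 1000000 counts of the library total (CPM) in either library was included, which kept 10303 of the 26466 gene symbols. The comparison rests on 2 of the 3 libraries of the study, 1 per population. Peripheral blood mononuclear cells (PBMC) made up the third library, whose values are given here only for reference. Trizol was the extraction reagent, and each Lexogen QuantSeq library was built from 500 ng of RNA, a method that counts fragments near the 3' end of polyadenylated transcripts. The labels give species and population only: they name no genotype, breed, sex, age, treatment, animal, passage or culture condition, and do not say how attached cells differ in handling from mesenchymal stem cells. The design text asks how gene profiles differ among the 3 populations.

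Mesenchymal stem cells of the marrow are stromal progenitors that are usually grown as adherent cells and can give rise to bone, fat and cartilage cells. They are known as makers of extracellular matrix, as support for blood-forming cells, and as a source of secreted cytokines and growth factors. They are recognised by surface proteins such as THY1, NT5E and ENG together with the lack of leukocyte markers such as PTPRC (CD45).

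With 1 library a side no difference could be checked against replicates, and no test was made. A gene was counted as higher in a population when log2((CPM + 1)/(CPM + 1)) was at least 2 in size, a 4-fold difference once 1 CPM is added to each level, and its level was 10 CPM and 10 counts or more in the higher library. Folds of single genes were computed from unadjusted CPM, and the parentheses hold their 95% interval by the exact conditional method (Clopper-Pearson). The interval covers counting error only and not differences between animals, cultures or preparations. Values of a gene in the 3 libraries are always in the order BM-MSC, BMAC and PBMC.

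The libraries held 17069344, 15122997 and 15445903 counts, with 20962 to 22156 symbols detected, so that 10 CPM stood for 152 to 171 counts. Ribosomal RNA and the rows that followed it held 17.6% of the BM-MSC counts and 13.2% of the BMAC counts, and mitochondrially encoded genes 3.36% and 1.93%. The median log2 ratio over the 10303 genes was -0.09. Leaving these RNA classes out of the totals moved that median by 0.11. Just inside the level limit lay CCDC78 (10.02 against 7.14 CPM), which overlaps METRN, and SGTB (10.02 against 3.64 CPM), which overlaps NLN, and just outside it lay KIF27 (4.34 against 9.98 CPM) and SBK1 (2.75 against 9.98 CPM).

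Before any function is compared, the rows that the RefSeq table of the pig assembly Sscrofa11.1 places on chromosome Y have to be given, because they separated the libraries. Of 18 such rows at 10 CPM or more, 12 were higher in BMAC by the size rule and 0 in BM-MSC. Summed, these 12 rows held 179, 9542 and 318 counts in BM-MSC, BMAC and PBMC, or 10.5, 631 and 20.6 CPM. EIF1AY, a Y-linked translation initiation factor, stood at 0.176, 26 and 0.583 CPM, a ratio of 148-fold (50.2 to 720.1). LOC110257905, named after its values were seen, held 0, 265 and 0.0647 CPM. BMAC alone was high for both genes. CD99 and DHRSX, which belong to the segment shared by the X and Y chromosomes, were not past the rule, with 535, 537 and 178 CPM for CD99 and 13, 28.9 and 28.2 CPM for DHRSX. Chromosome X held 320 of the included genes, of which 7 were higher in BM-MSC and 4 in BMAC, with a median log2 ratio of -0.06. The labels name neither animal nor sex, so for every difference that follows the population and the animal cannot be told apart.

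**Figure D1:**
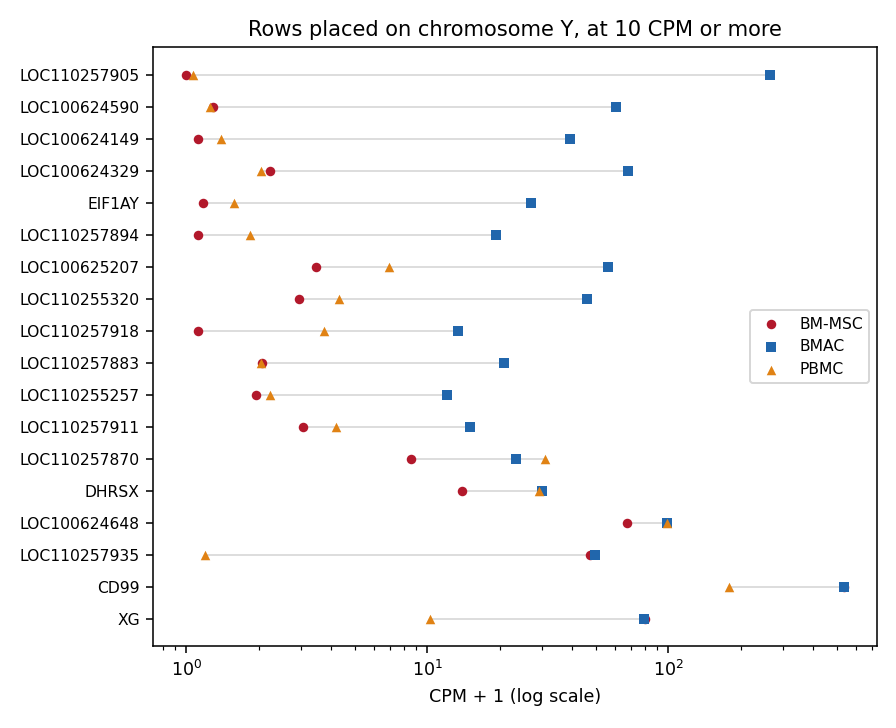
Level of each of the 18 chromosome Y rows at 10 CPM or more in the 3 libraries, on a log axis of CPM + 1, with 1 library per symbol and no error bar. The upper 12 rows stand at 11.1 to 265 CPM in BMAC and at no more than 2.46 CPM in BM-MSC, while CD99 and XG coincide.

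Across all genes BM-MSC and BMAC resembled each other far more than either resembled blood cells. Spearman's rho of the levels across the 10303 genes was 0.809 between them, against 0.324 between BM-MSC and PBMC over 11428 genes and 0.367 between BMAC and PBMC over 11371 genes. Genes are not independent replicates, so these coefficients are descriptions. A ratio within 2-fold was found for 8318 genes (80.7%). The size rule was met by 630 genes (6.11%), with 299 (2.90%) higher in BM-MSC and 331 (3.21%) higher in BMAC. Of the 299, 218 were below 10 CPM in BMAC. Of the 331, 208 were below 10 CPM in BM-MSC. A gene that entered through its higher library alone is lower in the other by construction, and counts over a list include such genes. The share past the rule was 5.86% at 10 to 30 CPM, 4.84% at 30 to 100 CPM, 8.79% at 100 to 1000 CPM and 12.6% among the 111 genes above that, by the level in the higher library. In bulk RNA, fewer cells that express a gene and less of its RNA per cell cannot be told apart, here or in any comparison below.

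**Figure D2:**
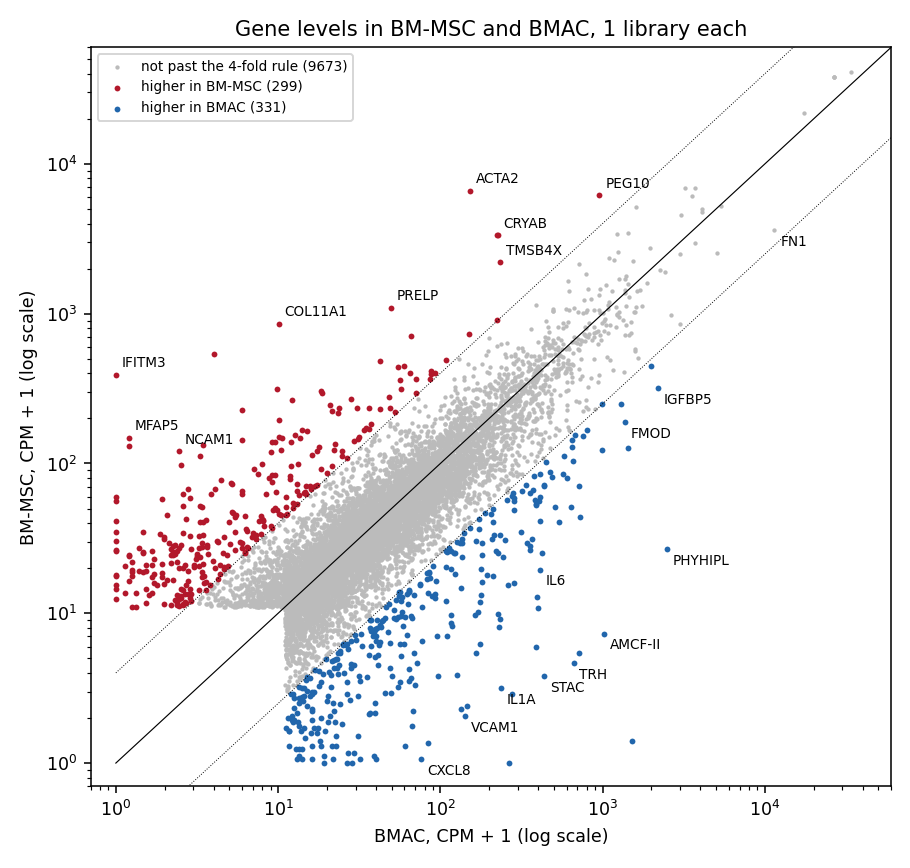
Level of each included gene in BMAC (x axis) and BM-MSC (y axis), both as CPM + 1 on log axes, with genes past the size rule coloured by the library in which they were higher, equal levels on the solid line and 4-fold differences on the dotted lines. Most points lie near the solid line, with 299 genes higher in BM-MSC above it and 331 higher in BMAC below it.

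Both libraries carried most surface markers of mesenchymal cells, and leukocyte markers were nearly absent. PTPRC stood at 1.11, 1.85 and 2884 CPM. The summed T cell markers came to 22.2, 18.3 and 1384 CPM, of which CD247 alone, a signalling chain of the T cell receptor, gave 19.2, 15.7 and 296 CPM. B cell markers summed to 4.86, 4.30 and 2014 CPM, and monocyte and macrophage markers to 7.67, 4.10 and 562 CPM. NK and cytotoxic markers summed to 1.58, 0.529 and 231 CPM. No member of the last 3 lists reached 10 CPM in BM-MSC or BMAC. Of 9 endothelial markers, PECAM1 at 15.2, 27.7 and 145 CPM and ERG at 52.6, 80.2 and 6.60 CPM reached the limit, while CDH5, the vascular cadherin, stood at 0.527, 0.264 and 0.647 CPM. Of the haematopoietic markers CD14, a coreceptor for bacterial lipopolysaccharide, alone reached the limit, at 3.63, 17.3 and 12.9 CPM. No Schwann cell marker reached 10 CPM.

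Of the surface proteins used to define mesenchymal stem cells, 3 of the 12 at 10 CPM or more passed the size rule, and 5 of the 12 (41.7%) were within 2-fold, against 80.7% of all genes. VCAM1, an adhesion molecule that cytokines induce and that holds blood-forming cells in the marrow, stood at 1.05, 140.1 and 0.259 CPM, a 133-fold (83.9 to 225) excess in BMAC. THY1 (CD90) was higher in BM-MSC, with 364, 69.8 and 48.7 CPM, a ratio of 5.22-fold (4.89 to 5.57). ALCAM (CD166) was also higher there, with 31.2, 3.64 and 270.5 CPM. The 2 other defining proteins NT5E (CD73), read together with the overlapping LOC102157437, and ENG (CD105) stood at 53.4 against 49.3 CPM and 17.6 against 16.2 CPM. CD44, the hyaluronan receptor, was 3.33-fold higher in BMAC (153 against 509 CPM), and PDGFRA (55.7 against 143 CPM) and PDGFRB (152 against 319 CPM) were also higher there, all below the size rule. ITGB1 was 1029 against 708 CPM. NGFR and LEPR, which mark marrow stroma in vivo, lay below 10 CPM in both libraries, at 0.293 against 0 CPM and 2.64 against 2.51 CPM.

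The genes with the largest ratios were of several kinds in each direction. The 12 largest ratios toward BM-MSC included 5 genes of matrix and contraction (MFAP5, ELN, COL11A1, MGP and ACTA2), and the 12 toward BMAC included 6 genes of cytokine action and inflammation (AMCF-II, SAA3, IL1A, CXCL8, VCAM1 and TNFSF15). The collagenase MMP1 was also among the 12 toward BMAC, and most of the remaining genes on either side belong to neither group. Toward BM-MSC the first was IFITM3, an interferon-induced protein that restricts virus entry, with 6637 counts in BM-MSC and 0 in BMAC (389, 0 and 159 CPM), a ratio of at least 1960.1-fold when 3 counts are set for BMAC. NCAM1 (CD56), a neural cell adhesion molecule, stood at 119, 1.45 and 6.02 CPM, a ratio of 82-fold (54 to 131). SIX3, a homeobox factor of forebrain and eye, stood at 226, 4.96 and 0.583 CPM. PAX1, a paired box factor of the embryonic sclerotome, stood at 34.1, 0 and 0.129 CPM. All 4 were low or at 0 in BMAC. PCLO, a scaffold of presynaptic terminals, was 111 against 2.31 CPM, TMEM229A 55.5 against 0 CPM, and the splicing regulator CELF2 131 against 2.45 CPM, with 988 CPM in PBMC.

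Toward BMAC, TRH, the thyrotropin-releasing hormone, had the largest ratio among genes without a LOC symbol when 1 CPM was added to each level, at 3.63, 661 and 0.259 CPM, an unadjusted ratio of 182-fold (142 to 238). Unadjusted, several genes had larger ones, among them CXCL8 and TNFSF15, resting on 1 and 6 counts in BM-MSC. STAC, which binds voltage-gated calcium channels, stood at 2.81, 435 and 2.65 CPM, and CACNA1D, the pore of such a channel, at 4.98, 389 and 7.70 CPM. LVRN, an aminopeptidase also called laeverin, stood at 1.87, 276 and 0.842 CPM. These 4 genes were each under 5 CPM in BM-MSC. PHYHIPL was the most abundant of the 12, at 25.7, 2501 and 122 CPM, and the LOC110256649 row that overlaps it held 0.410, 1519 and 83.2 CPM, so the 2 cannot be told apart without strand.

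**Figure D3:**
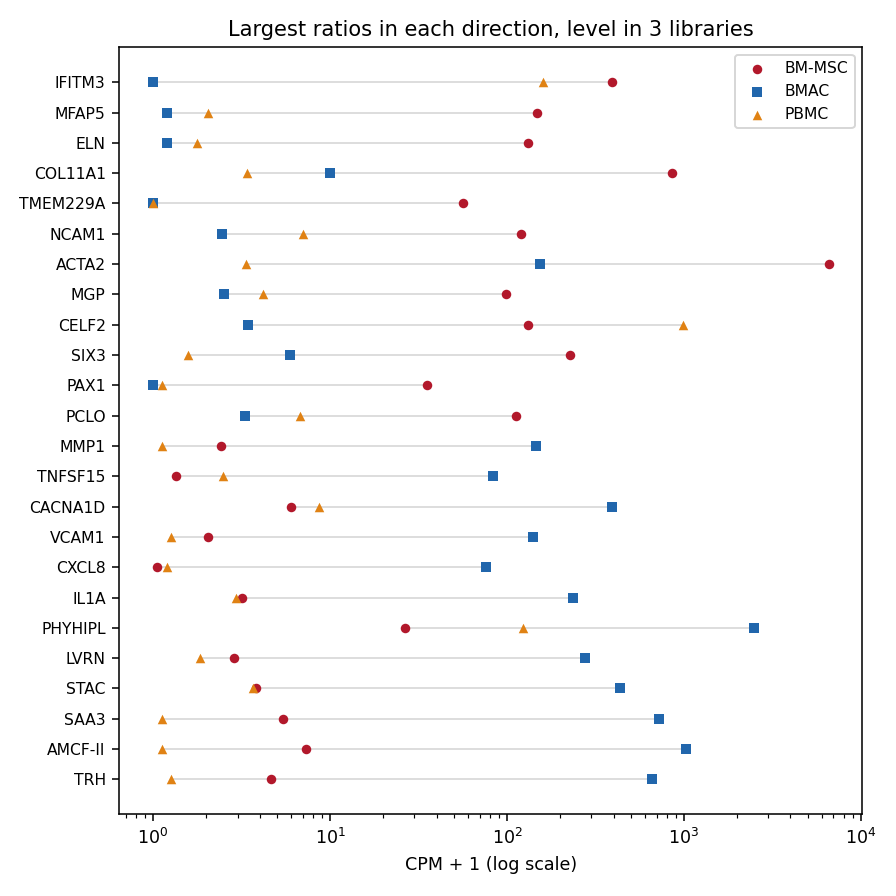
Level in the 3 libraries, as CPM + 1 on a log axis, of the 12 named genes with the largest ratio in each direction, 1 symbol per library and no error bars. In the upper 12 genes BM-MSC lies to the right of BMAC, from 34.1 CPM for PAX1 to 6566 CPM for ACTA2. In the lower 12 BMAC lies to the right, from 75.5 CPM for CXCL8 to 2501 CPM for PHYHIPL.

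Collagens as a family were balanced, but their members were not. Of 43 collagen chain genes 23 reached 10 CPM, with 6 higher in BM-MSC, 3 higher in BMAC and a median log2 ratio of -0.01, against -0.09 over all genes. The chains of the abundant fibrils were not past the rule. COL1A2 stood at 4804, 4119.7 and 0.0647 CPM. COL1A1 stood at 6893, 3219 and 0.129 CPM. COL3A1 leaned the other way, at 858, 3003 and 0.0647 CPM, and COL8A1 was 1073 against 1078 CPM. COL11A1, a minor fibrillar chain of cartilage that also nucleates fibrils, differed most, at 853, 9.06 and 2.40 CPM, a ratio of 94.2-fold (79.6 to 112), and it overlaps LOC110260367. The basement membrane chain COL4A1 was 293 against 17.7 CPM, and COL15A1, found beside basement membranes, was 403 against 63.5 CPM, a ratio of 6.34-fold (5.93 to 6.79) toward BM-MSC. COL4A2, the head-to-head neighbour whose row overlaps COL4A1, was 228 against 41.3 CPM and was named after its values were seen. COL8A2 was 34 against 0.463 CPM. BMAC held more COL12A1, a fibril-associated chain, at 122 against 994 CPM, a ratio of 8.13-fold (7.76 to 8.51). COL18A1, a basement membrane chain and the source of endostatin, was 15.3 against 92.5 CPM, and COL6A3 was 129 against 646 CPM.

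Enzymes that hydroxylate, cleave or crosslink collagen leaned toward BMAC, 15 of 19 having the higher level there, with a median of -0.72. LOXL4, a lysyl oxidase, was the member past the rule, at 6.03, 109 and 0.259 CPM, a ratio of 18-fold (14.8 to 22.2). The collagen chaperone SERPINH1 was 616 against 457 CPM.

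Small leucine-rich proteoglycans, which coat collagen fibrils, split between the libraries. PRELP, an anchor between basement membrane and matrix, stood at 1098, 48.6 and 0.842 CPM, a ratio of 22.6-fold (21 to 24.4) toward BM-MSC. FMOD (fibromodulin) stood at 187, 1365 and 0.194 CPM, a ratio of 7.29-fold (7.02 to 7.57) toward BMAC. Each was abundant in 1 library and present in the other. OGN, whose row overlaps CENPP, was 36 against 152 CPM, just past the rule and not past it with TMM scaling factors. LUM (137 against 152 CPM) and BGN (1017 against 760.3 CPM) were near equal.

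Elastic fibre genes gave the widest contrasts in the matrix. Of 14 members at 10 CPM, 4 were higher in BM-MSC and 1 in BMAC, with a median of 0.29. ELN, the elastin core, had 2213 counts in BM-MSC and 3 in BMAC (129.6, 0.198 and 0.777 CPM), a ratio of 654-fold (223 to 3172). MFAP5, a microfibril glycoprotein, had 2516 and 3 counts (147, 0.198 and 1.04 CPM), a ratio of 743-fold (254 to 3605). Both were high in BM-MSC only, whereas the main microfibril protein FBN1 was 753 against 906 CPM. FBLN2, a fibulin, was 91.2 against 6.08 CPM, and MFAP4, which overlaps MAPK7, was 246 against 19.97 CPM. LTBP4, a latent TGF-beta binding protein whose row overlaps LOC106507592, was 5.57 against 39 CPM and thus higher in BMAC.

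The 28 listed glycoproteins of the matrix summed to 9234 against 20181 CPM, and of the 20 at 10 CPM, 3 were higher in each library. FN1 (fibronectin) stood at 3622, 11465 and 41 CPM, a ratio of 3.17-fold (3.14 to 3.19), below the size rule. Among genes without a LOC symbol and other than ribosomal RNA, FN1 had the largest difference in CPM toward BMAC. THBS1 (thrombospondin 1) was 2544 against 5103 CPM. FN1 and THBS1 together held most of the difference between the sums. Past the rule in BMAC were ECM1 at 54.8 against 402 CPM and TNC (tenascin C), a glycoprotein of growing and injured tissue, at 151 against 761 CPM. Past it in BM-MSC were MGP, an inhibitor of calcification, at 97.3 against 1.52 CPM, VCAN (versican) at 294 against 69.7 CPM, and TNXB at 26.8 against 2.64 CPM, whose row overlaps ATF6B. Among hyaluronan genes, HAPLN1 was 1.52 against 20.9 CPM and overlaps LOC102165705, and the hyaluronan-binding TNFAIP6 was 23.8 against 2.18 CPM. Of the 9 laminin and basement membrane genes, LAMA2, a laminin of muscle and nerve basement membrane, passed the rule at 39.5 against 3.97 CPM, while LAMC1 was 309 against 330.2 CPM and 6 of the 9 had the higher level in BMAC.

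Proteases and their inhibitors showed a small number of large differences. MMP1, the interstitial collagenase, stood at 1.41, 144 and 0.129 CPM, a ratio of 103-fold (68.8 to 161) toward BMAC, while the membrane-bound MMP14 was 359.8 against 395 CPM. The aggrecanase ADAMTS4 was 1.99 against 15.1 CPM. SERPINE2, a serine protease inhibitor, leaned toward BMAC, at 974 against 2627 CPM, below the rule. MMP28, read with the overlapping LOC110256052, was 20.4 against 0.926 CPM. Of 27 members, 2 were higher in each population.

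Of 31 contractile and cytoskeletal genes at 10 CPM, 4 were higher in BM-MSC and 0 in BMAC, while 21 lay within 2-fold. The level summed over all 34 listed symbols was 30325 against 18219.9 CPM. ACTA2, the smooth muscle actin that also marks myofibroblasts, stood at 6566, 152 and 2.33 CPM, a ratio of 43.2-fold (41.5 to 45.1), and held more of the gap between the sums than all other members together. It was the third most abundant named gene of BM-MSC after CALD1 and COL1A1. ACTG2, the enteric smooth muscle actin, stood at 479, 41.3 and 1.17 CPM, and CNN1 (calponin) at 167, 13 and 1.17 CPM. SMTN (smoothelin) was 53.3 against 11.4 CPM. MYH11, the smooth muscle myosin heavy chain, was 23.2 against 5.55 CPM, under the rule. The cytoplasmic actin ACTB was 4575 against 3032 CPM, the tropomyosin TPM4 2263 against 1536 CPM and VIM (vimentin) 2943 against 3698 CPM, all within 2-fold. TMSB4X, which binds actin monomers, was 2201 against 233 CPM, a ratio of 9.46-fold (9.14 to 9.80).

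Of 6 markers of pericytes and smooth muscle at 10 CPM, 5 had the higher level in BM-MSC and 1 in BMAC. Past the rule were 2 toward BM-MSC, CNN1 and NOTCH3, and 1 toward BMAC. The pericyte markers RGS5 (0.762 against 1.12 CPM), KCNJ8 (0 against 0 CPM) and ABCC9 (1.29 against 0.793 CPM) lay below 10 CPM in both libraries. NOTCH3, a Notch receptor of mural cells whose row overlaps LOC100628051, stood at 30.1, 0.992 and 1.49 CPM, higher in BM-MSC. NDUFA4L2, a mitochondrial protein found in pericytes, stood at 0.762, 66.3 and 1.04 CPM, a ratio of 87-fold (50.6 to 164) toward BMAC. CSPG4 (NG2) and MCAM were 33.7 against 27 CPM and 60.05 against 46.8 CPM, the latter overlapping CBL. Among cytoskeleton-linked YAP and TAZ target genes, 2 of 14 were higher in BM-MSC: TGFB2 at 127 against 16.9 CPM and ANKRD1, which overlaps RPP30, at 16.9 against 0 CPM. CRIM1 (989 against 1220.5 CPM) was near equal, and the list's median was 0.01.

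Of 13 cadherins and protocadherins at 10 CPM, 3 were higher in BM-MSC and 0 in BMAC. CDH2 (N-cadherin) was 46.8 against 4.17 CPM, CDH18 149 against 9.06 CPM and PCDH9 133 against 21.4 CPM. However, 4 of the 13 reached 10 CPM in BM-MSC alone and 1 in BMAC alone, and so were lower in the other by construction. Of the 8 at 10 CPM in both libraries, 5 had the higher level in BMAC and 3 in BM-MSC, with 1 past the rule. None of the 14 integrin genes at 10 CPM passed the rule in either direction.

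Of 58 chaperone genes at 10 CPM, 5 were higher in BM-MSC and 1 in BMAC, together 10.3% against 6.11% of all genes. However, 5 of the 58 reached 10 CPM in BM-MSC alone and 2 in BMAC alone, and so were lower in the other by construction. Of the 51 at 10 CPM in both libraries, 2 were higher in BM-MSC and 0 in BMAC. Small heat shock proteins were among those higher in BM-MSC. CRYAB (alpha B-crystallin) stood at 3332, 224 and 1.29 CPM, a ratio of 14.9-fold (14.4 to 15.4). Its neighbour HSPB2 was 64.9 against 4.96 CPM, and both overlap C9H11orf1, so their reads may be shared. HSPB8 was 57.6 against 1.85 CPM, HSPB6 112 against 15.1 CPM and HSPA2 19.9 against 0.661 CPM. The general chaperones HSP90AA1 (662 against 491 CPM) and HSPA5 (595 against 484 CPM) were close to equal. DNAJC6, which uncoats clathrin vesicles, was the member higher in BMAC, at 8.26 against 44.9 CPM.

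Of 7 cytokines of the IL-1 and IL-6 families at 10 CPM, 4 were higher in BMAC and 0 in BM-MSC, and the list summed to 152 against 1129 CPM. IL6, an inducer of the acute phase, stood at 18.6, 409 and 0.0647 CPM, a ratio of 22-fold (19.7 to 24.7). IL1A, an alarm cytokine released by stressed cells, stood at 2.17, 235 and 1.94 CPM, a ratio of 108-fold (78.4 to 154). IL11 stood at 10.9, 173 and 0.0647 CPM. LIF was 1.82 against 30.1 CPM. All 4 were highest in BMAC. CLCF1, which shares the same signalling receptor subunit, was 11.6 against 11.3 CPM, with LOC110259234 overlapping it. TNFSF15 (TL1A) stood at 0.352, 82.7 and 1.49 CPM, a ratio of 235-fold (108 to 642).

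The chemokines higher in BMAC were all of the CXC group. AMCF-II, a pig neutrophil chemoattractant, stood at 6.33, 1023 and 0.129 CPM, a ratio of 162-fold (134 to 197). CXCL8 (interleukin 8) had 1 count in BM-MSC and 1142 in BMAC (0.0586, 75.5 and 0.194 CPM), a ratio of 1289-fold (231 to 50956). CXCL2 stood at 12.7, 82.8 and 6.60 CPM. BMAC was the high library for each. Summed over all 32 chemokine symbols, the level was 329.9 against 1776 CPM. Of the 7 at 10 CPM, 3 were past the rule in BMAC and 0 in BM-MSC. Of 21 cytokine receptors, 1 (4.76%) passed the rule, near the 6.11% of all genes. It was TNFRSF21, at 13.4 against 1.85 CPM. IL6ST, the shared subunit for IL6 and its relatives, was 93.6 against 136 CPM with LOC102168151 overlapping it.

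NF-kB is a family of transcription factors that cytokines of the IL-1 and TNF families activate and that induce their own feedback inhibitors. Of 20 subunits, inhibitors and induced genes at 10 CPM, 18 had the higher level in BMAC and 4 passed the rule there. The median log2 ratio was -1.42, against -0.09 over all genes. By construction, the 5 that reached 10 CPM in BMAC alone were lower in BM-MSC. Among the 15 at 10 CPM in both libraries, 13 had the higher level in BMAC and 2 passed the rule there. The median log2 ratio of these 15 was -1.01. TNFAIP3 (A20), a feedback inhibitor, stood at 2.81, 96.3 and 286 CPM, a ratio of 34.2-fold (25.7 to 46.7), with blood cells higher than both. NFKBIA, the inhibitor IkB alpha, stood at 30.2, 206 and 33.3 CPM. TNFAIP2, read with the overlapping HMGXB4, was 12.4 against 91.4 CPM. The fourth was VCAM1. ICAM1 (171 against 179 CPM) and NFKBIZ (82.2 against 84.6 CPM), also targets of this pathway, were near equal.

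Of 11 acute-phase and complement genes at 10 CPM, 4 were higher in BM-MSC and 1 in BMAC. However, 4 of the 11 reached 10 CPM in BM-MSC alone and 2 in BMAC alone, and so were lower in the other by construction. Of the 5 at 10 CPM in both libraries, 0 passed the rule, 2 had the higher level in BM-MSC and 3 in BMAC. The member past the rule toward BMAC was SAA3, a serum amyloid A made by tissue cells. It stood at 4.45, 718 and 0.129 CPM, a ratio of 161-fold (129 to 205). PTX3, a pentraxin, was 21.9 against 0.727 CPM and overlaps VEPH1. Complement C2 was 35.6 against 5.36 CPM, the C1 inhibitor SERPING1 26.4 against 5.55 CPM, and C1S 104 against 141 CPM.

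Prostaglandin E2 is made from arachidonic acid in 3 steps, and genes of each step were higher in BMAC. PLA2G4A, the phospholipase that frees arachidonic acid, stood at 103, 652 and 52.2 CPM, and PTGS2 (COX-2), which converts it, at 69.95, 435 and 0.647 CPM. These 2 rows overlap each other, so part of either level may belong to its neighbour. PTGES, the synthase of the last step, stood at 52.8, 385 and 0.259 CPM, a ratio of 7.30-fold (6.81 to 7.84). PTGS1 (COX-1) was 17.7 against 81.4 CPM. PTGFR, the receptor for prostaglandin F2 alpha, went the other way, at 32.7 against 0.860 CPM. In all, 4 of 10 members were higher in BMAC and 1 in BM-MSC.

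Of 24 growth factor ligands of the FGF, EGF, HGF, PDGF and VEGF families at 10 CPM, 7 were higher in BMAC and 1 in BM-MSC. The median log2 ratio of FGF, EGF, HGF and PDGF ligands was -1.16, but -0.45 with a limit of 1 CPM. AREG (amphiregulin) and EREG (epiregulin), ligands of the EGF receptor, stood at 11.9, 393 and 1.88 CPM and 9.14, 168 and 4.53 CPM. VEGFA, the main driver of vessel growth, stood at 14.4, 261 and 1.55 CPM, a ratio of 18.1-fold (15.9 to 20.7). ANGPT1, the ligand of the endothelial receptor TEK, stood at 56.1, 380.0 and 6.80 CPM. Each of these was highest in BMAC. FGF10, which overlaps LOC102161640, was the ligand higher in BM-MSC, at 12.7 against 0.661 CPM. PDGFA (31.9 against 44.3 CPM) and HBEGF (19.2 against 20.2 CPM) differed by less than 2-fold. Of the 19 receptors, 1 passed the rule: ROR1, a receptor tyrosine kinase for WNT5A, at 94.6 against 11 CPM.

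Of 10 genes of the insulin-like growth factor axis at 10 CPM, 1 was higher in BM-MSC and 2 in BMAC. IGF1, the ligand, stood at 79.1, 7.80 and 1.88 CPM, a ratio of 10.1-fold (8.39 to 12.3) toward BM-MSC. IGFBP5, a binding protein, stood at 316, 2196 and 0.129 CPM, a ratio of 6.95-fold (6.75 to 7.15) toward BMAC. PAPPA, a protease that cleaves such binding proteins, was 102 against 448 CPM, also higher in BMAC. The receptor IGF1R was 299 against 366 CPM.

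WNT genes passed the rule in both directions, 3 each way among 24. The ligand WNT5A, overlapping LOC102162847, was higher in BMAC at 7.21, 117 and 0 CPM. The secreted inhibitor WIF1 was 8.61 against 56.1 CPM and SFRP4 167 against 798 CPM, also higher in BMAC. BM-MSC held more of the inhibitors SFRP2 (712 against 64.7 CPM), DKK2 (66.3 against 1.79 CPM) and NKD2 (264 against 11.2 CPM), of which DKK2 had a ratio of 37.1-fold (25.4 to 56.6). SFRP1 was 1033 against 1263 CPM, and so high and near equal in both. Among TGF-beta and BMP genes, 2 of 39 were higher in BM-MSC, namely TGFB2 and the BMP antagonist GREM1 (276 against 47.1 CPM). LTBP4 was the 1 higher in BMAC, so that 7.69% passed the rule, near the 6.11% of all genes. In the Notch pathway, the ligand JAG1 stood at 70.1, 15.8 and 2.46 CPM, NOTCH2 was 225 against 231 CPM, and NOTCH1, which overlaps TECPR2, was 5.10 against 24 CPM, past the rule but not with TMM factors. Guidance genes past the rule were EPHB3 (44.2 against 4.50 CPM) and EFNA5 (139 against 28.2 CPM), an ephrin receptor and an ephrin, toward BM-MSC, and SLIT2 (248 against 997 CPM), which lay on the limit and not past it with TMM factors, toward BMAC.

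Factors by which marrow stroma supports blood-forming cells had members on both sides. SPP1 (osteopontin) stood at 12.2, 178 and 0.388 CPM, a ratio of 14.6-fold (12.7 to 16.9) toward BMAC, beside VCAM1 and ANGPT1. JAG1 was higher in BM-MSC. CXCL12, the main chemokine of the niche, was 1.17 against 0.595 CPM, and KITLG (stem cell factor) was 74.8 against 130.4 CPM. Of 9 factors at 10 CPM, 3 were higher in BMAC and 1 in BM-MSC. The list's median was -0.79, but 0.45 with a limit of 1 CPM and -0.05 with TMM factors, so no direction is given for it.

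**Figure D4:**
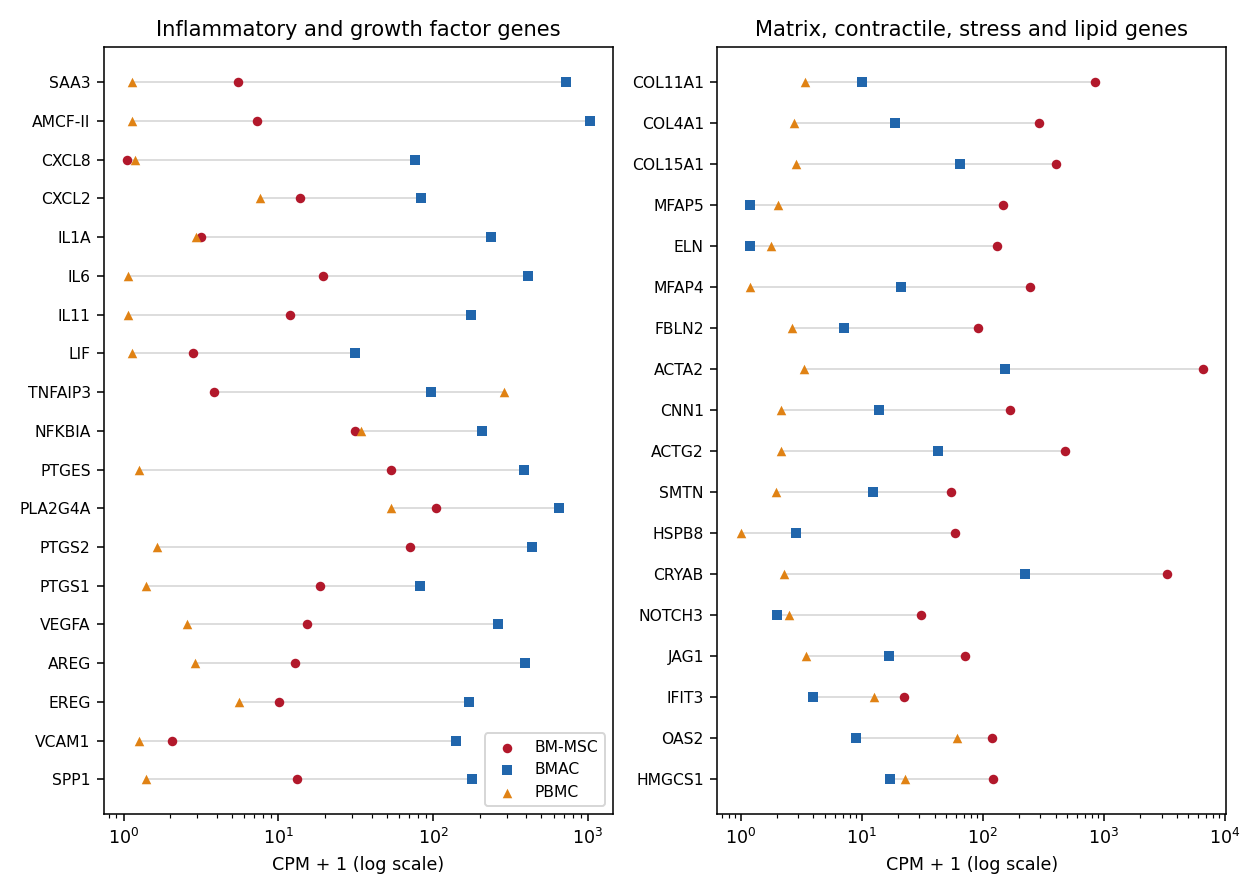
Level in the 3 libraries, as CPM + 1 on a log axis, of inflammatory and growth factor genes (left) and of matrix, contractile, stress and lipid genes (right), 1 symbol per library and no error bars. All 19 genes on the left are higher in BMAC than in BM-MSC, and the 18 on the right are higher in BM-MSC, which is how they were chosen. PBMC exceeds both for TNFAIP3.

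Of 29 transcription factors of mesenchymal cells at 10 CPM, 2 were higher in BM-MSC and 2 in BMAC, together 13.8% against 6.11% of all genes. Within 2-fold lay 16 of them (55.2%), against 80.7%. PRRX2, a homeobox factor of limb and craniofacial mesenchyme, was 306 against 355 CPM, and TEAD1, the partner of YAP, was 765 against 1022 CPM with LOC110259298 overlapping it. EBF2, a factor of adipocyte progenitors, was 20.5 against 1.19 CPM and OSR2 19.9 against 3.37 CPM, higher in BM-MSC. MEIS1, a HOX cofactor, was 62.7 against 279 CPM and FOXF1, which overlaps MTHFSD, was 8.08 against 39.7 CPM, higher in BMAC. Among SOX genes, SOX11 stood at 0.293, 21.7 and 0 CPM, a ratio of 74-fold (31.4 to 229.6) toward BMAC, and SOX4 was 177 against 154 CPM. No HOX gene passed the rule among 9 at 10 CPM, but 7 of the 9 had the higher level in BMAC. Their median log2 ratio was -1.19, and 3 (33.3%) lay within 2-fold, against 80.7% of all genes. The sign of that median changed with a limit of 1 CPM and without overlapping rows. HOXA9 was 26.7 against 32.8 CPM, with LOC106506841 overlapping it.

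Genes of the bone, fat and cartilage lineages are those into which these cells can be driven. Of 7 osteoblast genes at 10 CPM, SPP1 alone passed the rule and 3 were within 2-fold. RUNX2, the master regulator of osteoblasts, was 78.6 against 196 CPM and overlaps SUPT3H. FABP5, a fatty acid binding protein, stood at 23.3, 0.198 and 4.99 CPM, a ratio of 117-fold (39.8 to 571) toward BM-MSC, while the lipid droplet protein PLIN2 was 295 against 255 CPM. FABP4 and LPL, genes of mature fat cells, lay below 10 CPM in both libraries, at 5.39 against 0 CPM and 9.84 against 0.661 CPM. CTSK, a collagen-degrading cathepsin also made by fibroblasts, was 911 against 222 CPM, and no other marker of osteoclasts reached 10 CPM. Of 6 cartilage and tendon genes at 10 CPM, 0 lay within 2-fold. COL11A1 was the one higher in BM-MSC. HAPLN1, which links hyaluronan to proteoglycans, was higher in BMAC, as was SOX6, a cofactor of SOX9, at 25.1, 107 and 14.6 CPM, the latter not with TMM factors. The other 3, SOX9, SOX5 and MKX, named after their values were seen, had the higher level in BMAC below the rule, at 13.4 against 33.8 CPM, 408 against 1348 CPM and 35.5 against 137 CPM. The cartilage genes ACAN (9.14 against 0.793 CPM), COMP (5.27 against 0.793 CPM) and COL2A1 (0.117 against 0 CPM) lay below 10 CPM in both libraries. Their higher level was in BM-MSC, while that of COL10A1 (0.527 against 1.72 CPM) was in BMAC.

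Of 19 mitosis and cell cycle genes at 10 CPM, 17 had the higher level in BMAC, 9 passed the rule there and 0 in BM-MSC, and 14 reached 10 CPM in BMAC alone and so were lower in BM-MSC by construction. Of the 5 at 10 CPM in both libraries, 3 had the higher level in BMAC, 2 in BM-MSC and 0 passed the rule. Summed over the whole list, the level was 1601 against 1546 CPM, of which cyclin CCND1, named after its values were seen, gave 1080.0 against 492 CPM. MKI67, the Ki-67 proliferation antigen, stood at 2.52, 30.9 and 35.2 CPM, a ratio of 12.3-fold (8.96 to 17.2). TOP2A, the topoisomerase of dividing cells, stood at 6.21, 61 and 109 CPM. RRM2, a subunit of ribonucleotide reductase, stood at 3.28, 47.7 and 29.5 CPM. BM-MSC was the lowest of the 3 libraries for each. UBE2C, which acts with the anaphase-promoting complex, was 1.46 against 23.1 CPM. Cyclin CCND2 was 194 against 158 CPM. The 14 replication genes, 1 of them RRM2, had a median of -0.77, or -0.48 over the 8 at 10 CPM in both libraries, with MCM3 at 0.996 against 10.5 CPM and MCM6 at 19.3 against 24.2 CPM. Among p53 targets and cell cycle inhibitors, the stress genes GADD45A (77.9 against 10.8 CPM) and GADD45G (18.6 against 3.64 CPM) were higher in BM-MSC, and LMNB1, a lamina protein, was 3.16 against 15.9 CPM, past the rule toward BMAC but not with TMM factors.

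Immediate-early genes passed the rule in both directions. IER3 was 154 against 673 CPM and MAFF 29.2 against 165 CPM, higher in BMAC, while FOS was 11.1 against 1.92 CPM. JUNB was 159 against 159 CPM and JUND 114 against 117 CPM. Of 39 members, 1 was higher in BM-MSC and 3 in BMAC.

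Glycolysis genes leaned toward BMAC, 18 of 21, with 5 past the rule and a median of -1.02. The members with the largest ratios handle entry and exit of the pathway. SLC16A3 (MCT4), which exports lactate, stood at 2.34, 68.3 and 2.78 CPM, a ratio of 29.1-fold (21.3 to 41). SLC2A3 (GLUT3), which imports glucose, was 17.3 against 122 CPM, and HK2, the first kinase, 10.5 against 62.2 CPM. PFKL was 6.21 against 28.9 CPM, past the rule but not with TMM factors. The abundant enzymes PKM (1406 against 1634 CPM) and ALDOA (292 against 347 CPM) and the importer SLC2A1 (GLUT1), which overlaps ZNF691, at 117 against 98.9 CPM, were near equal.

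Genes known to be induced in low oxygen had mostly the higher level in BMAC, 18 of 21, with 6 past the rule, 0 the other way and a median of -1.20. The largest was VEGFA. BNIP3, a mitophagy receptor, stood at 83.7, 566 and 21.2 CPM, a ratio of 6.76-fold (6.39 to 7.15), and its relative BNIP3L was 75.6 against 101 CPM. ANGPTL4 was 10.1 against 76.3 CPM, and the oxygen sensor EGLN3 was 1.29 against 15.1 CPM.

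All 17 cholesterol synthesis genes at 10 CPM had the higher level in BM-MSC, 4 of them past the rule and 13 not, and the median log2 ratio was 1.45. HMGCS1, which makes the precursor HMG-CoA, stood at 121, 16.3 and 21.7 CPM, a ratio of 7.42-fold (6.49 to 8.50). TM7SF2, a sterol reductase, was 15.3 against 1.79 CPM and STARD4, a sterol carrier, 19.98 against 1.65 CPM. SREBF2, the transcription factor of this pathway, was 59.6 against 58.6 CPM. Fatty acid genes were closer, with 0 of 14 past the rule and ACACA at 62.6 against 82.9 CPM.

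Of 20 interferon-stimulated genes at 10 CPM, 19 had the higher level in BM-MSC, 7 passed the rule and 0 did so toward BMAC, while 10 reached 10 CPM in BM-MSC alone and so were lower in BMAC by construction. Over the 10 at 10 CPM in both libraries, 9 had the higher level in BM-MSC and 1 passed the rule, and the median log2 ratio was 0.93, against 1.31 over the 20. OAS2, which senses double-stranded RNA, stood at 118, 8.07 and 60.6 CPM, a ratio of 14.6-fold (12.2 to 17.7). PARP14, an ADP-ribosyltransferase, stood at 26, 1.92 and 82.4 CPM. IFIT3 and IFIT2, antiviral proteins, were 21.3 against 2.98 CPM and 12 against 1.45 CPM, each overlapping LIPA. BMAC was the lowest library for OAS2 and PARP14. The RNA sensor DDX58, which overlaps ACO1, was 49.2 against 36.1 CPM. MHC class I and antigen processing genes were divided, 9 having the higher level in each library, with 1 of 18 past the rule. That gene, SLA-3, was 64.5 against 12 CPM, but class I genes are near-identical copies and its row overlaps SLA-2, so the reads cannot be assigned with certainty. SLA-1, which overlaps LOC100513601, was 501 against 739 CPM. CIITA, the master regulator of class II genes, which overlaps DEXI, was 29.4 against 25 CPM.

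**Figure D5:**
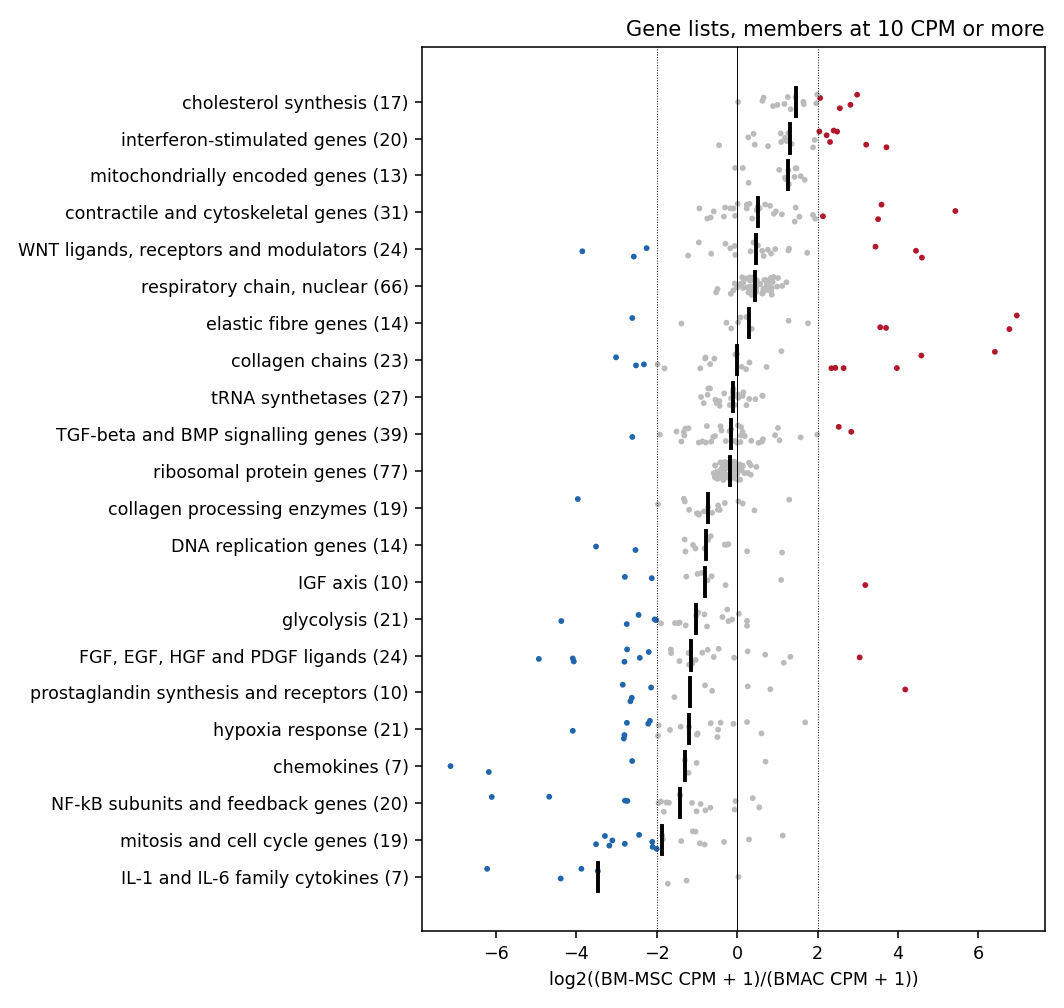
Log2((BM-MSC CPM + 1)/(BMAC CPM + 1)) of each member at 10 CPM or more in 22 gene lists, with the number of members in parentheses, a black bar at the list's median and dotted lines at -2 and 2. The medians run from -3.46 for IL-1 and IL-6 family cytokines to 1.45 for cholesterol synthesis, and the median over all genes was -0.09.

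Mitochondrial genes of both genomes mostly had the higher level in BM-MSC, with no member past the rule. Of 13 mitochondrially encoded genes, 12 had the higher level in BM-MSC, with a median of 1.27. The complex I subunits ND4 (5147 against 1607 CPM) and ND2 (3428 against 1232 CPM) differed more than the complex IV subunits COX1 (5206 against 5397 CPM) and COX3, which overlaps ATP6 (5017 against 4122 CPM). Of 66 nuclear respiratory chain genes, 60 had the higher level in BM-MSC, with a median of 0.44; COX5B was 221 against 149.6 CPM. For comparison, the median of 77 ribosomal protein genes was -0.17.

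Lysosomal genes also leaned to BM-MSC, 34 of 44, with a median of 0.42. GPNMB, a glycoprotein of lysosomes and melanosomes, was 269.7 against 27.1 CPM. Of the 10 with the higher level in BMAC, CTSC (cathepsin C) alone passed the rule. It activates granule proteases, at 9.78, 397 and 427 CPM, a ratio of 40.6-fold (34.8 to 47.6) toward BMAC. LAMP1 was 874 against 614 CPM. Of the S100, annexin and galectin genes, 3 of 22 were higher in BM-MSC, among them ANXA1, a phospholipid-binding protein, at 403 against 91.2 CPM. LGALS1 (galectin 1) was 1339 against 945 CPM.

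Ion channels and receptors held several genes that were high in BMAC. Of 40 channel genes, 8 were higher in BMAC and 2 in BM-MSC. By construction, the 13 that reached 10 CPM in BMAC alone were lower in BM-MSC, and the 4 in BM-MSC alone lower in BMAC. Among the 23 at 10 CPM in both libraries, 1 passed the rule in each direction. Of these 23, 16 had the higher level in BMAC and 7 in BM-MSC. Beside CACNA1D, the channels higher in BMAC were led by PIEZO2, a mechanically gated channel of touch receptors. PIEZO2 stood at 7.15, 228 and 6.60 CPM, a ratio of 32-fold (26.7 to 38.6). KCNN3, a calcium-activated potassium channel, was 4.45 against 68.1 CPM, and TRPC6, which overlaps LOC110255424, was 2.75 against 34.1 CPM. CACNA1A, another calcium channel pore, went the other way at 72.2 against 12.2 CPM. Of 49 G protein-coupled receptors, 7 were higher in BMAC and 4 in BM-MSC, together 22.4%. Of the 35 at 10 CPM in both libraries, 3 were higher in BMAC and 1 in BM-MSC. CYSLTR2, a receptor for cysteinyl leukotrienes, stood at 1.29, 133 and 11.2 CPM, a ratio of 103-fold (67.9 to 165) toward BMAC. ACKR3, a scavenger receptor for CXCL12, was 30.5 against 364 CPM, and the nucleotide receptor P2RY2 5.51 against 76.4 CPM. AGTR1, the main angiotensin II receptor, stood at 56.5, 0.926 and 1.10 CPM, a ratio of 61.1-fold (36.2 to 112) toward BM-MSC.

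Of 164 solute carriers, 8 were higher in BMAC and 3 in BM-MSC, together 6.71%, near the 6.11% of all genes. SLC5A3, an inositol importer whose row overlaps MRPS6, was 16.8 against 209 CPM, and the sodium-calcium exchanger SLC8A1 3.69 against 70.9 CPM. SLC16A7 (MCT2), a monocarboxylate carrier, was 27 against 1.26 CPM, higher in BM-MSC. Of 30 enzymes and anchors of cyclic nucleotide signalling, 3 were higher in BMAC and 0 in BM-MSC. They included the cAMP phosphodiesterase PDE4B at 25.1 against 221 CPM and the kinase anchor AKAP12 at 78.6 against 599 CPM.

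Imprinted genes, expressed from 1 parental allele, included the most abundant gene that passed the rule after ACTA2. PEG10, a retrotransposon-derived gene, stood at 6156, 956 and 0 CPM, a ratio of 6.44-fold (6.33 to 6.55) toward BM-MSC, and MEG3, a maternally expressed long noncoding RNA, stood at 71.7, 4.23 and 0 CPM. The other 10 measured members did not pass, among them UBE3A at 89.2 against 88.8 CPM.

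With 6.11% of all genes past the rule, a count of 0 in a small family says little. No member passed among 77 ribosomal protein genes, 66 nuclear respiratory chain genes, 27 tRNA synthetases, 23 apoptosis regulators, 22 amino acid stress genes, 19 endoplasmic reticulum folding genes, 17 NRF2 antioxidant genes and 14 housekeeping genes. EEF1A1, an elongation factor, was 1966 against 2272 CPM and MCL1, a survival protein, 221 against 260.4 CPM. The ferritin chains FTH1 (2492 against 2989.7 CPM) and FTL (6071 against 3578 CPM) were within 2-fold. Of 54 splicing factors, 2 passed, CELF2 and RBFOX3 (27.6 against 1.52 CPM), both toward BM-MSC. Of 133 zinc finger genes, 1 was higher in BM-MSC and 2 in BMAC.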

How the data were processed

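RNA of 3 pig cell populations was sequenced, 1 QuantSeq library each, and the 2 marrow populations are compared here. The deposited values are raw counts per gene row, since they are whole and their totals differ. Per the submitters' processing notes Bowtie2 and bedtools were used, at versions and for steps not given in the sources used here, nor are the build, annotation, strand setting and handling of multi-mapping reads. Each file lists 26965 rows under 26466 symbols, and rows of the 81 repeated symbols were summed. All symbols were found in the RefSeq table of Sscrofa11.1, which was used for names, chromosomes, transcript classes and overlaps, with no coordinates or sequences taken from it.

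Levels are counts per 1000000 counts of a library (CPM). Genes at 10 CPM in either library were kept. A gene was called when log2((CPM + 1)/(CPM + 1)) reached 2 in size with 10 CPM and 10 counts in the higher library. Fold intervals are 95% exact conditional (Clopper-Pearson) intervals, and against 0 counts a fold is a bound with 3 counts, or 0.176 (BM-MSC) and 0.198 CPM (BMAC). No molecular identifiers are known to have been used, and both describe counting error alone. With 1 library per population there was no test, no replicate error and no p-value. A gene overlapping another row that held at least 25% of its count in the higher library is named with that row, because 2764 kept genes overlap another row and strand use is unknown.

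Genes were described in 82 lists, of which 18 member names were not found. Named genes are the 12 with the largest ratio in each direction, up to 4 per list and direction with the largest ratio, up to 2 abundant list members within 1.5-fold, the reached markers, the 10 most abundant genes of each library and the 10 largest CPM differences each way, without LOC symbols, and the genes next to the CPM limit. COL4A2, HSPB6, TMSB4X, RUNX2, KITLG, CXCL12, the chromosome Y genes and markers below 10 CPM were added after their values were seen. The members and lists were chosen with earlier results of these data known. The calculation was tested on simulated counts with known folds. Alternatives used TMM factors (edgeR 4.0.16) and median-of-ratios factors (DESeq2 1.42.0) in R 4.3.3, other totals, pseudocounts, limits and size rules, and fits without overlapping or LOC rows; the rest ran in Python 3.11.15. Some genes of these lists are not reported here.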

Additional observations from a re-analysis of the deposited data

How the results depend on the processing

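No paired analysis was possible because each population has 1 library, and for the same reason no replicate could be left out. The counts of 299 genes higher in BM-MSC and 331 higher in BMAC were 320 and 311 with TMM factors, 322 and 308 with median-of-ratios factors, and 366 and 328 when ribosomal RNA rows and mitochondrially encoded genes were left out of the totals. The share of calls on the BM-MSC side was 47.5% and became 50.7%, 51.1% and 52.7%, so which side held more calls depended on the scaling. Pseudocounts and limits moved the counts more: 176 and 198 with a pseudocount of 5 CPM, 122 and 176 with a limit of 50 CPM in either library, 81 and 123 with 10 CPM required in both, 845 and 1140 with a 2-fold rule, and 141 and 133 with an 8-fold rule. The median log2 ratio of all genes ran from -0.12 to 0.02.

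Among 181 named genes past the rule, none changed direction under the 10 alternatives of scaling, pseudocount, limit and row set, but none could have. Pseudocounts, limits and row sets cannot turn a direction, and the 3 other scalings moved ratios by far less than the rule's size of 2. A limit of 50 CPM kept 120 of the 181, 10 CPM in both libraries kept 76, and leaving out overlapping rows kept 146. The 7 genes lost with each of the 3 other scalings were LMNB1, NOTCH1, OGN, PDE7B, PFKL, SLIT2 and SOX6, and 42 were lost with a pseudocount of 5 CPM, among them ADAMTS4, C2, CYP21A2, DNAJC6, EGLN3, FGF10, FOS, FOXF1, GADD45G, HAPLN1, IFIT2, IFIT3, JAG1, MCM3, OSR2, PTGS1, SERPING1, SMTN, STARD4, TM7SF2 and TNFRSF21. MYH11 passed the rule with a pseudocount of 0.1 CPM and without ribosomal and mitochondrial RNA in the totals. Of 23 list medians at least 0.5 in size, 5 of 229 alternative values changed sign and 41 more moved by at least 0.25 on the log2 scale. With 10 CPM in both libraries, the median log2 ratio of IL-1 and IL-6 family cytokines went from -3.465 to -1.725 and the median log2 ratio of mitosis and cell cycle genes from -1.862 to -0.808. Without ribosomal and mitochondrial RNA in the totals, the median log2 ratio of prostaglandin synthesis and receptors went from -1.181 to -0.610. The median log2 ratio of haematopoietic niche factors, -0.793, became 0.445 with a limit of 1 CPM and 0.683 with 10 CPM in both libraries. The median log2 ratio of HOX genes, -1.186, became 0.068 with a limit of 1 CPM and 0.879 without overlapping rows. The median log2 ratio of DNA replication genes, -0.766, became 0.040 with a limit of 50 CPM. The cause was not tested.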

Other observations

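Some genes were present in 1 population and nearly without counts in the other. With at least 10 CPM on one side and 3 counts or fewer on the other, 20 genes were found in BM-MSC only and 16 in BMAC only. Of the 20, 13 had 0 counts in BMAC. Beside genes already described, they held TYRP1, a melanin synthesis enzyme, at 29.5, 0 and 0.0647 CPM (at least 149-fold higher than BMAC), MAL, a myelin and lymphocyte raft protein, at 16.9, 0 and 0.0647 CPM, BEX4 at 14.4, 0 and 0.842 CPM, and TINAGL1, a matrix glycoprotein, at 11.5, 0 and 0.324 CPM. CYP21A2, the steroid 21-hydroxylase, stood at 13.6, 0 and 0 CPM, and its row overlaps TNXB. Of the 16 found in BMAC only, 5 lay on chromosome Y and 11 carried LOC symbols. Those with names of their own were CXCL8, EIF1AY, CBLN4, a secreted synaptic protein, at 0.0586, 38.9 and 0.0647 CPM, TLX3, a homeobox factor of sensory neurons, at 0.0586, 12 and 0 CPM, and PHEROC at 0.0586, 15.1 and 0 CPM. These genes were chosen by that count rule after the values were seen, apart from those named before.

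Long noncoding RNA genes passed the size rule more often than protein-coding genes. Of 644 such genes, 33 (5.12%) were higher in BM-MSC and 52 (8.07%) in BMAC, against 265 (2.75%) and 278 (2.88%) of 9642 protein-coding genes. Genes with LOC symbols made up 9.49% of all included genes, 17.7% of those higher in BM-MSC and 23.6% of those higher in BMAC. Genes past the rule were less often at 10 CPM in blood cells: 32.1% of those higher in BM-MSC and 35.3% of those higher in BMAC, against 75.3% of all included genes. None of these shares was tested.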
